A study of Mus musculus with 10 samples.

Results

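The genes described here are 9 surface and identity markers of hematopoietic stem cells (HSCs), found by gene symbol: Procr, Slamf1, Cd48, Cd34, Fgd5, Ctnnal1, Cd9, Cd27 and Abcg2. A list of 10 names was searched, of which Slamf2 is a RefSeq synonym of Cd48, so that 10 names gave 9 of the 33393 genes in the values. RNA came from bone marrow HSCs of 8-week-old C57BL/6 mice, sorted as lineage-, Sca-1+, c-Kit+, CD34- and Flt3- cells (CD34- HSCs). Control mice carried 2 floxed Regnase-1 alleles (Reg1flox/flox), and Reg1Δ/Δ mice carried the same alleles with Vav1-iCre, a transgene that expresses Cre recombinase throughout the blood system. Experiment 1 held 3 libraries per group and experiment 2 held 2 per group, so that 5 control libraries and 5 libraries labelled Reg1Δ/Δ were compared within experiments. Levels are given as TPM, the relative abundance of a transcript corrected for its length, summed over the transcripts of each gene. The number of reads behind a value is unknown.

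HSCs are isolated by combinations of surface proteins, since no single protein marks them. In mouse bone marrow, long-term repopulating cells carry CD150 (encoded by Slamf1) and the endothelial protein C receptor (Procr) and lack or carry little CD48 and CD34, while their progeny gain CD48, CD34 and Flt3. Fgd5 and Ctnnal1 are used as reporter genes for HSCs, and the efflux pump ABCG2 gives them the low dye staining by which the side population was defined.

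The transcript level of Regnase-1 itself, encoded by Zc3h12a, went against the labels. It had 1.28 to 1.83 TPM in the controls and 2.08 to 3.54 TPM in the libraries labelled Reg1Δ/Δ of experiment 1, and 1.48 and 6.07 TPM against 10.3 and 8.52 TPM in experiment 2. Values per transcript cannot show whether the reads lay in the deleted exons, so they do not settle whether the gene was deleted. Directions are therefore given by label. Of the genes of the sort, Kit fell (log2 fold change −1.39, limma FDR = 1.08e-04). Ly6a, which encodes Sca-1, had 85.2 to 108 TPM in the controls and 449, 50.9 and 369 TPM in the libraries labelled Reg1Δ/Δ of experiment 1, where replicate 2 stood apart. In experiment 2 it had 68.1 and 73.8 TPM against 124 and 115 TPM, and Ly6a passed in that experiment alone (0.74, limma FDR = 0.0366) but not over both (0.92, FDR = 0.155). Genes at or above 1 TPM numbered 14276 to 14307 in the controls and 12006 to 12048 in the libraries labelled Reg1Δ/Δ of experiment 1, and 13366 and 13717 against 11398 and 11256 in experiment 2. Protein-coding transcripts held 46.2 to 49.1% of the TPM in experiment 1 and 73.5 to 81.1% in experiment 2.

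The 9 genes lie on 4 chromosomes, with 4 of them (Abcg2, Fgd5, Cd27 and Cd9) on chromosome 6 and 3 (Cd48, Slamf1 and Cd34) on chromosome 1. Cd48 and Slamf1 are neighbours in the cluster of SLAM receptor genes, on the plus strand of GRCm38 at chr1:171682009-171705258 and chr1:171767127-171801184, with 61.9 kb between them. Abcg2, at chr6:58584523-58695676 on the plus strand, has annotated transcripts from separate start sites. The first of these (58584523 to 58584527) lies before the 2 called upstream and downstream below. The groups differed in Slamf1 and not in Cd48 by the test used, and the Abcg2 transcripts of 2 start sites are given apart, so the 250 bases before 4 annotated starts are shown, 5′ to 3′ on the plus strand, from the RefSeq promoters of GRCm38.p6. They are chr1:171766882-171767131 for Slamf1, chr1:171681742-171681991 for Cd48, chr6:58596422-58596671 for the upstream Abcg2 start and chr6:58640296-58640545 for the downstream one. The upstream Abcg2 window ends at the start of Abcg2-201 and lies downstream of the start of Abcg2-210, so it does not show the bases before that transcript. Capitals mark the letters GATAA (the core of GATA factor motifs), AGGAAG (of ETS factor motifs) and TGTGGT (of RUNX motifs) or their reverse complements.
Slamf1: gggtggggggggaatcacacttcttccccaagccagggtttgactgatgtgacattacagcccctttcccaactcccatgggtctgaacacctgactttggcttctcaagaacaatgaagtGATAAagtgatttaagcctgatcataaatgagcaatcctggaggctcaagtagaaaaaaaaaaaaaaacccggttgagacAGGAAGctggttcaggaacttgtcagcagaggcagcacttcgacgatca
Cd48: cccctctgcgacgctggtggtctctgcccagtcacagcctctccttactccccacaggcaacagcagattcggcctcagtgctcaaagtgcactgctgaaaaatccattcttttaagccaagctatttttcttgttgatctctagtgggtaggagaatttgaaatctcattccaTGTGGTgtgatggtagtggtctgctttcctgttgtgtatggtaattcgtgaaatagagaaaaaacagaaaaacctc
Abcg2 upstream start: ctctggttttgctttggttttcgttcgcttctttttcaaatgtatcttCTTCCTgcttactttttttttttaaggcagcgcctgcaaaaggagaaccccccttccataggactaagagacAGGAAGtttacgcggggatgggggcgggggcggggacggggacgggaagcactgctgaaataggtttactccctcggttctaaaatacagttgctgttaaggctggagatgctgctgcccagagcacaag
Abcg2 downstream start: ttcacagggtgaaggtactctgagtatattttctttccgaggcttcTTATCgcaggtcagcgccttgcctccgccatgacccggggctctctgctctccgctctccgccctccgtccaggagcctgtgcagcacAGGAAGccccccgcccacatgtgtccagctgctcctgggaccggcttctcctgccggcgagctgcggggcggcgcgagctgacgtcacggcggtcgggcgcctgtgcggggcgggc

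The window of Slamf1 held 1 match to GATAA and 1 to AGGAAG, and that of Cd48 held 1 match to TGTGGT and none to the others. The upstream Abcg2 window held 2 matches to AGGAAG, and the downstream one held 1 match to AGGAAG and 1 to GATAA. GC content was 47.2% for Slamf1, 46.0% for Cd48, 50.0% for the upstream Abcg2 window and 67.6% for the downstream one, against a median of 52.4% over 32851 promoter windows of the same length. Among those windows, 22.6% held GATAA, 29.5% held AGGAAG and 14.0% held TGTGGT on either strand. All 9 genes were matched in the promoter table, with 11 windows, and 2 of the 9 had a GATAA match, 5 an AGGAAG match and 2 a TGTGGT match in at least 1 window. For Abcg2 the TGTGGT matches lay in a window not shown, before its first annotated start. These matches describe letters, and the data hold no measurement of binding.

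In the controls, the markers covered a wide range of levels. In experiment 1 the order of the mean TPM was Cd34 (192), Cd27 (91.9), Cd48 (88.7), Abcg2 (78.7), Cd9 (54.1), Procr (25.0), Ctnnal1 (11.4), Slamf1 (7.85) and Fgd5 (4.53). Cd27, Cd48 and Abcg2 did not differ beyond the spread of the 3 controls, since their ranges overlapped, and neither did Cd48 and Cd9. In experiment 2 Cd34 (66.9), Cd9 (65.9) and Cd48 (62.6) had the highest means, with overlapping ranges, followed by Abcg2 (43.5), Cd27 (42.1) and Procr (34.8), and Ctnnal1 (9.99), Slamf1 (8.70) and Fgd5 (7.30) again came last. There the range of Cd27 overlapped those of Cd34, Abcg2 and Procr, and Ctnnal1 and Slamf1 overlapped too. In the libraries labelled Reg1Δ/Δ, Cd48 and Abcg2 led the order in both experiments and Procr and Fgd5 were at the end of it, while the ranges of Cd9 and Cd34, next to each other in the order, overlapped in both.

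At a false discovery rate (FDR, Benjamini-Hochberg over 12874 tested genes, limma with the experiment as a covariate) under 0.05, 7 of the 9 markers were lower in the libraries labelled Reg1Δ/Δ, against 37.9% of all tested genes. None was higher, at this FDR or at an unadjusted p under 0.05, against 15.0% of tested genes that were higher at this FDR. The 2 markers that did not pass were Cd48 and Abcg2. The 9 had a median log2 fold change of −2.11, and all tested genes together had one of −0.25. In each of the 7, every library labelled Reg1Δ/Δ lay below every control of its experiment, which was so for 31.4% of tested genes. Tested genes had at least 1 TPM in at least 5 of the 10 libraries, and Fgd5 passed this limit by its 5 controls alone, and Procr by its 5 controls and 1 library labelled Reg1Δ/Δ. Fold changes are of TPM + 1 on the log2 scale, which understates those of genes with low TPM. In bulk RNA of sorted cells, fewer cells of a type and less RNA per cell cannot be told apart. Nothing in the labels says whether the libraries of a group came from separate mice, so that the p values measure the spread between these libraries, which may be technical.

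**Figure D1:**
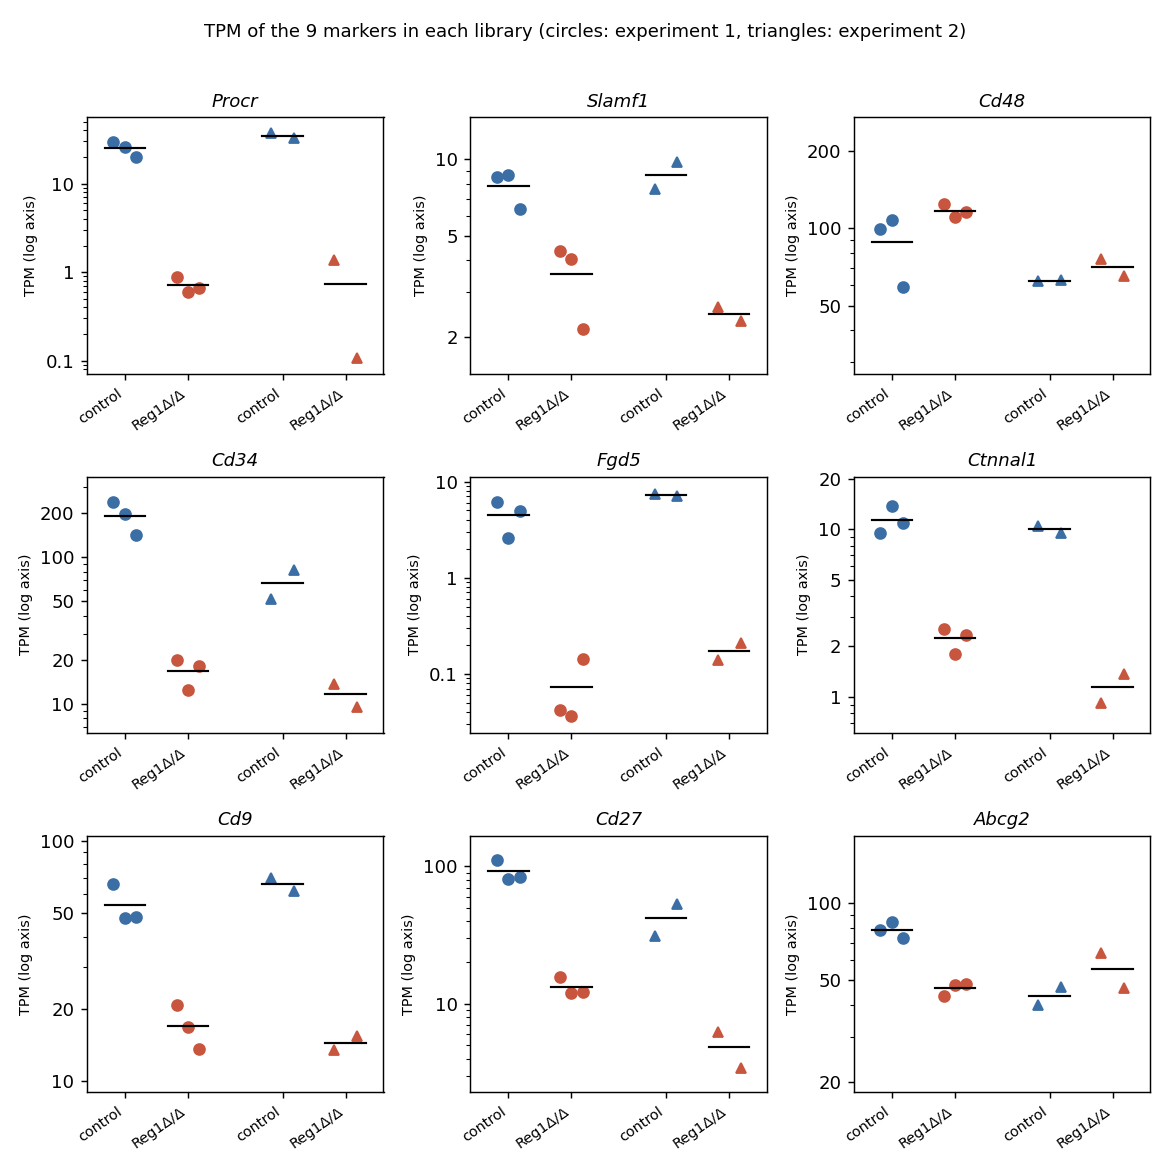
TPM of each marker (log axis, with its own range in each panel) in the 10 libraries, by group as labelled and by experiment (circles, experiment 1, and triangles, experiment 2), with horizontal lines at the group means. The groups are apart in 7 panels, while Cd48 lies slightly higher in the libraries labelled Reg1Δ/Δ and Abcg2 lies lower in experiment 1 and overlaps in experiment 2.

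Procr encodes the endothelial protein C receptor (EPCR, CD201), which binds protein C and marks repopulating HSCs. Its level in the controls was 29.4, 25.8 and 19.8 TPM in experiment 1 and 37.3 and 32.4 TPM in experiment 2. In the libraries labelled Reg1Δ/Δ it was 0.89, 0.59 and 0.66 TPM in experiment 1 and 1.36 and 0.11 TPM in experiment 2. The highest of these 5 values was far below the lowest control. The ratio of the group means was 35.1 in experiment 1 and 47.5 in experiment 2, control over labelled Reg1Δ/Δ. The ratio of experiment 2 rests on low values that lie far apart, 1.36 and 0.11 TPM, so its size is uncertain. Procr had the largest fall of the 9, with a log2 change of −4.13 (standard error 0.22, FDR = 7.05e-07), and 0.44% of tested genes had a lower value. The full-length coding transcript Procr-201 fell with a log2 change of −3.68 (limma FDR = 1.91e-05 over 31937 tested transcripts), and it entered the test by the 5 controls alone. The shorter coding transcript Procr-202 had 11.0 and 8.04 TPM in the controls of experiment 2 and 1.26, 0 and 0 TPM in those of the first, so the makeup of the control level differed between the experiments.

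Fgd5, an exchange factor that activates the small GTPase CDC42, had 6.09, 2.61 and 4.90 TPM in the controls of experiment 1 and 7.50 and 7.10 TPM in those of experiment 2. Every library labelled Reg1Δ/Δ was near 0, with 0.04, 0.04 and 0.14 TPM in experiment 1 and 0.14 and 0.21 TPM in experiment 2. On the log2 scale the difference was −2.52 (standard error 0.19, FDR = 4.54e-06). Fgd5 entered the test by its controls alone, so the filter itself favoured a lower call. With 0.1 TPM added in place of 1 the Fgd5 difference was −4.73, and after quantile normalization it was −1.65. On the linear scale the control mean was 62.1 times the other mean in experiment 1 and 41.9 times in experiment 2, above the ratio of Procr in experiment 1 and below it in experiment 2. These ratios divide by values near 0, so their size and order are uncertain. None of the 4 Fgd5 transcripts reached the limit for a test of its own. The 2 full-length coding transcripts, Fgd5-201 and Fgd5-202, start at separate sites, and both were below every control in every library labelled Reg1Δ/Δ of their experiment.

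Ctnnal1 encodes alpha-catulin, a relative of the alpha catenins. Controls had 9.55, 13.7 and 11.0 TPM in experiment 1 and 10.4 and 9.55 TPM in experiment 2. Libraries labelled Reg1Δ/Δ had 2.53, 1.81 and 2.36 TPM in experiment 1 and 0.92 and 1.37 TPM in experiment 2. The groups did not overlap in either experiment, and the difference was −2.11 (standard error 0.14, FDR = 2.79e-06). After quantile normalization the Ctnnal1 difference was −1.29. Of its 8 transcripts 2 were tested and both fell, the full-length Ctnnal1-201 by 1.97 on the log2 scale (limma FDR = 4.97e-05). The groups of the other, Ctnnal1-204, overlapped in experiment 2, with 4.84 and 0 TPM in the controls and 0 in the others.

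Slamf1 encodes CD150, a self-binding SLAM family receptor. Its level was 8.52, 8.67 and 6.34 TPM in the controls of experiment 1 and 7.65 and 9.75 TPM in those of experiment 2. In the libraries labelled Reg1Δ/Δ it was 4.35, 4.05 and 2.14 TPM in experiment 1 and 2.61 and 2.30 TPM in experiment 2. All 5 were below the lowest control, and the smallest gap, from 4.35 to 6.34 TPM, was in experiment 1. Slamf1 had the smallest fall among the 7, with a log2 change of −1.19 (standard error 0.18, FDR = 4.62e-04). After quantile normalization it was −0.37 and no longer passed (FDR = 0.121). The spliced transcript Slamf1-201 held 93.1% of the control level in experiment 1 and 97.3% in experiment 2, and it fell by 1.21 on the log2 scale (limma FDR = 0.00286).

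Cd48 encodes a glycolipid-anchored SLAM family protein that binds the receptor CD244 and marks progenitors that have left the HSC state. Controls had 99.4, 108 and 59.2 TPM in experiment 1 and 62.4 and 62.8 TPM in experiment 2. Libraries labelled Reg1Δ/Δ had 124, 110 and 116 TPM in experiment 1 and 76.0 and 65.4 TPM in experiment 2. Every one of these was above every control of its experiment, but by less than the spread of the controls in experiment 1, where control replicate 3 was far below the other 2. On the log2 scale the difference was 0.33 (standard error 0.17, 95% interval −0.04 to 0.70) and did not pass (FDR = 0.119). Without control replicate 3 of experiment 1 the difference in Cd48 was 0.17 (limma FDR = 0.194). With median-of-ratios scaling it was 0.68 and passed (FDR = 0.00748). The transcript Cd48-202 held 97.7 to 99.4% of the level in each group on average.

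The paired markers CD150 and CD48 were also compared as a ratio within each library. The log2 ratio of Slamf1 to Cd48 (TPM + 1) was −3.40, −3.49 and −3.04 in the controls of experiment 1 and −2.88 and −2.57 in those of experiment 2. In the libraries labelled Reg1Δ/Δ it was −4.55, −4.46 and −5.22 in experiment 1 and −4.42 and −4.33 in experiment 2. The ratio was lower by 1.52 on the log2 scale (−1.52, exact two-sided permutation test within experiments, p = 0.0167, adjusted p = 0.025 over 3 ratios), and every library labelled Reg1Δ/Δ was below every control. This p is the smallest that the 120 assignments allow. After quantile normalization the difference was −0.70, with the same exact permutation p. The surface proteins were not measured in these libraries.

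Cd34 encodes a sialomucin that HSCs of adult mice gain on activation or differentiation, and its protein was used in the sort, which took cells without it from both groups. Its transcript was present in all 10 libraries. Controls had 236, 197 and 142 TPM in experiment 1 and 51.9 and 82.0 TPM in experiment 2. Libraries labelled Reg1Δ/Δ had 19.8, 12.5 and 18.1 TPM in experiment 1 and 13.7 and 9.54 TPM in experiment 2. The level in the controls thus differed between experiments more than that of any other marker in absolute TPM, and the groups did not overlap in either. On the log2 scale the difference was −3.03 (standard error 0.26, FDR = 1.09e-05). Flt3, whose protein was excluded by the same sort, fell as well, from 16.1 to 33.9 TPM in the controls of experiment 1 to 1.74 to 2.21 TPM, and from 11.0 and 14.8 TPM to 1.41 and 1.16 TPM in experiment 2.

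Cd34 transcripts code for 2 forms, a full-length one (Cd34-201, with 1146 coding bases) and one with a shorter coding sequence (Cd34-202, with 975). Cd34-201 had 89.5, 74.9 and 54.7 TPM in the controls of experiment 1 and 43.4 and 67.4 TPM in those of experiment 2, against 6.67, 3.95 and 6.36 TPM and 6.71 and 4.08 TPM in the libraries labelled Reg1Δ/Δ. Cd34-202 had 61.4, 49.8 and 35.7 TPM and 8.56 and 14.4 TPM in the controls, against 6.71, 3.15 and 3.88 TPM and 6.95 and 5.47 TPM. Both fell, with log2 changes of −3.34 for Cd34-201 (limma FDR = 2.04e-05) and −2.21 for Cd34-202 (FDR = 0.00798). The share of Cd34-201 in the gene was 38.2% in controls and 33.5% in libraries labelled Reg1Δ/Δ of experiment 1, and 82.9% and 45.9% in experiment 2. The difference in share was not tested. Another transcript, Cd34-203, annotated to nonsense-mediated decay, held 34.8% and 38.4% in experiment 1 and was listed at 0 in all 4 libraries of experiment 2. With a mean of 66.8 TPM in the controls of experiment 1, Cd34-203 held part of the difference in Cd34 level between the controls of the experiments.

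Procr and Cd34 fell together but not by equal amounts. The log2 ratio of Procr to Cd34 was −2.97, −2.89 and −2.78 in the controls of experiment 1 and −0.47 and −1.31 in those of experiment 2. It was −3.46, −3.08 and −3.52, and −2.64 and −3.25, in the libraries labelled Reg1Δ/Δ. Each of these 5 ratios was lower than those of its own controls (difference −1.11, exact two-sided permutation test within experiments, p = 0.0167, adjusted p = 0.025). With protein-coding transcripts only it no longer passed (−1.03, exact permutation p = 0.0667). The difference was −0.48 in experiment 1 and −2.05 in experiment 2. Because Procr was near or below 1 TPM in the libraries labelled Reg1Δ/Δ, the size of the ratio depends on the added 1 TPM, and with 0.1 TPM added in its place the difference was −2.26.

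**Figure D2:**
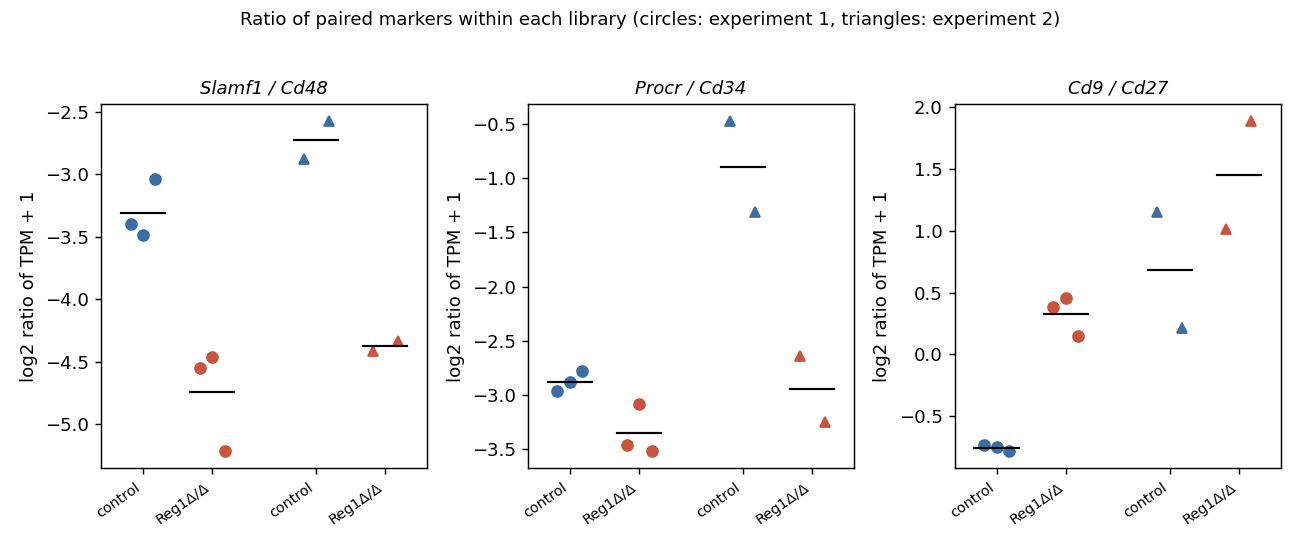
Log2 ratio of TPM + 1 within each library for Slamf1 to Cd48, Procr to Cd34 and Cd9 to Cd27, by group as labelled and by experiment, with lines at the group means. The groups are apart in both experiments for the first pair of ratios, and overlap in experiment 2 for Cd9 to Cd27.

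Cd9 encodes a tetraspanin, a membrane protein that organizes other surface proteins and marks HSCs and megakaryocytes. Controls had 66.2, 48.0 and 48.1 TPM in experiment 1 and 70.0 and 61.9 TPM in experiment 2. In the libraries labelled Reg1Δ/Δ the level was 20.7, 16.8 and 13.7 TPM in experiment 1 and 13.6 and 15.4 TPM in experiment 2. The groups did not overlap in either experiment. On the log2 scale the difference was −1.81 (standard error 0.16, FDR = 1.46e-05). The full-length Cd9-201 held 87.3% of the control level in experiment 1 and 99.7% in experiment 2 and fell by 1.92 on the log2 scale (limma FDR = 6.18e-05). The retained-intron Cd9-203, too low for a test, was higher without overlap in the libraries labelled Reg1Δ/Δ of experiment 1. It held 1.99% of the gene in the controls and 15.5% in the others there, and had at most 0.43 TPM in experiment 2.

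Cd27 encodes a receptor of the TNF receptor superfamily that binds CD70 and is carried by multipotent progenitors and part of the HSCs. Its level was 111, 81.4 and 83.5 TPM in the controls of experiment 1 and 31.0 and 53.1 TPM in those of experiment 2. Libraries labelled Reg1Δ/Δ had 15.7, 12.0 and 12.3 TPM and 6.22 and 3.44 TPM. The groups were apart in both experiments, and both were lower in experiment 2. On the log2 scale the difference was −2.77 (standard error 0.19, FDR = 3.29e-06). All 4 tested Cd27 transcripts fell, Cd27-201 by the largest amount (−2.88, limma FDR = 2.66e-05). The groups of Cd27-206 and Cd27-204 overlapped in experiment 2. The controls there had 0 and 0.93 TPM of Cd27-206 and 0 and 1.21 TPM of Cd27-204, and the others were at 0.

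Cd27 fell by more than Cd9. The log2 ratio of Cd9 to Cd27 was −0.73, −0.75 and −0.78 in the controls of experiment 1 and 0.38, 0.46 and 0.14 in the libraries labelled Reg1Δ/Δ. In experiment 2 it was 1.15 and 0.22 in the controls and 1.01 and 1.89 in the others, and the groups overlapped. The difference was 0.96 (exact two-sided permutation test within experiments, p = 0.0333, adjusted p = 0.0333). It no longer passed without control replicate 2 of experiment 2 (0.84, exact permutation p = 0.05) or without replicate 2 of the libraries labelled Reg1Δ/Δ of that experiment (0.85, exact permutation p = 0.05).

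Abcg2 encodes an efflux pump of the ABC family. Controls had 78.8, 84.0 and 73.3 TPM in experiment 1 and 39.8 and 47.2 TPM in experiment 2, and libraries labelled Reg1Δ/Δ had 43.2, 47.9 and 48.3 TPM and 63.6 and 46.7 TPM. The groups were apart in experiment 1 and overlapped in experiment 2. The log2 fold change over both was −0.32 (standard error 0.20, 95% interval −0.78 to 0.14, FDR = 0.215), close to the median of all tested genes. It was −0.75 in experiment 1 alone (limma FDR = 0.00337) and 0.32 in experiment 2 (FDR = 0.389), and was 0.03 over both with median-of-ratios scaling. The difference between the experiments was 1.07 (standard error 0.24) and did not pass (interaction in limma, FDR = 0.136). Without replicate 1 of the libraries labelled Reg1Δ/Δ of experiment 2, which had 63.6 TPM, the fold change over both passed (−0.49, limma FDR = 0.0435).

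The transcripts of Abcg2 are given by start site. Those of the first start (58584523 to 58584527) summed to at most 0.63 TPM in any library. Transcripts from the upstream start (58595975 to 58596671, Abcg2-210 and Abcg2-201) summed to 26.6, 28.1 and 13.8 TPM in the controls of experiment 1 and 1.44 and 8.61 TPM in those of experiment 2. In the libraries labelled Reg1Δ/Δ they summed to 0.82, 2.36 and 0.78 TPM and to 0.28 and 0.05 TPM, below every control of the same experiment. Most of this was Abcg2-210, a short transcript of 348 bases with 1 coding exon, which fell by 2.69 on the log2 scale (−2.69, limma FDR = 0.0125). It was listed at 0 in 1 control and in both libraries labelled Reg1Δ/Δ of experiment 2. The long Abcg2-201, with all 15 coding exons, had 0.70 to 1.58 TPM in the 5 controls and 0.05 to 0.31 TPM in the 5 others, too low for a test.

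From the downstream start (58640546 to 58640582), the full coding transcript Abcg2-202, with the same 1971 coding bases as Abcg2-201, did not pass the test in either direction. It had 30.8, 27.7 and 32.9 TPM in the controls of experiment 1 and 31.5 and 33.1 TPM in those of experiment 2. It had 27.9, 33.1 and 38.1 TPM and 39.6 and 35.2 TPM in the libraries labelled Reg1Δ/Δ (log2 fold change 0.15, standard error 0.13, 95% interval −0.16 to 0.45, limma FDR = 0.47). Of the others from this start, Abcg2-213 (664 bases) fell (−1.06, limma FDR = 0.0321), and Abcg2-203, a retained-intron transcript, did not pass over both experiments (−0.21, FDR = 0.813). The groups of Abcg2-203 were apart in opposite directions, with 11.0, 16.1 and 13.5 TPM in the controls against 5.24, 5.14 and 3.07 TPM in experiment 1, and 3.57 and 0.90 TPM against 9.53 and 6.48 TPM in experiment 2. Abcg2-207, too low for a test, was listed at 0 in all 5 controls and had 10.7 and 2.14 TPM in the libraries labelled Reg1Δ/Δ of experiment 2 and at most 0.09 TPM in those of experiment 1. All transcripts from this start held 56.5 to 70.1% of the gene in the controls and 79.2 to 87.7% in the libraries labelled Reg1Δ/Δ of experiment 1. In the second they held 79.7 and 96.4% in the controls, and 98.6 and 99.9% in the others. The difference between the starts was not tested, and transcripts that share exons share reads, which the estimate divides between them.

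**Figure D3:**
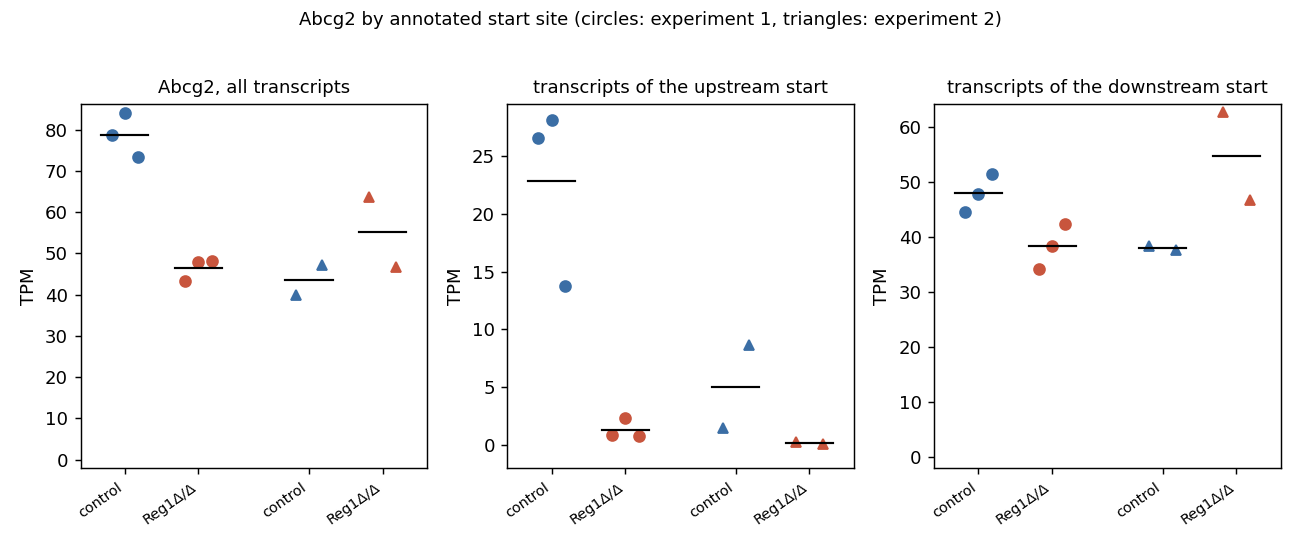
TPM of all Abcg2 transcripts, of those from the upstream start and of those from the downstream start, in the 10 libraries by group as labelled and by experiment, with lines at the group means. The upstream transcripts are below 3 TPM in every library labelled Reg1Δ/Δ, and the downstream ones range from 34.2 to 62.7 TPM there.

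Of the 45 transcripts of the 9 genes, 20 were tested. At FDR under 0.05 in limma, 14 of these were lower, against 14.9% of all tested transcripts, and 7 were lower without the experiment as a covariate. None was higher, against 6.40%, and 1 of the 20 was higher at an unadjusted p under 0.05. The 6 that did not pass were 3 of Abcg2, both of Cd48 and Cd9-202. At least 1 tested transcript fell for 7 genes, and Fgd5 had no tested transcript.

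The experiments were also fitted apart. In experiment 1 alone, 8 of the 9 markers were lower at FDR under 0.05 (limma), against 38.3% of tested genes. In the second alone, with 2 libraries per group, 6 were lower, against 12.3%. The 8 were all but Cd48, and the 6 lacked Cd27 (−2.88, FDR = 0.0507), Abcg2 and Cd48. Both counts include Fgd5, which entered the test by its controls alone. The 7 markers that fell over both experiments had negative fold changes in each, from −0.997 (Slamf1) to −3.91 (Procr) in experiment 1 and from −1.48 to −4.47 for the same genes in experiment 2. For none of the 9 did the effect differ between experiments at FDR under 0.05 (interaction in limma), against 0.443% of tested genes, and for 2 of them, Cd34 and Abcg2, it did at an unadjusted p under 0.05.

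**Figure D4:**
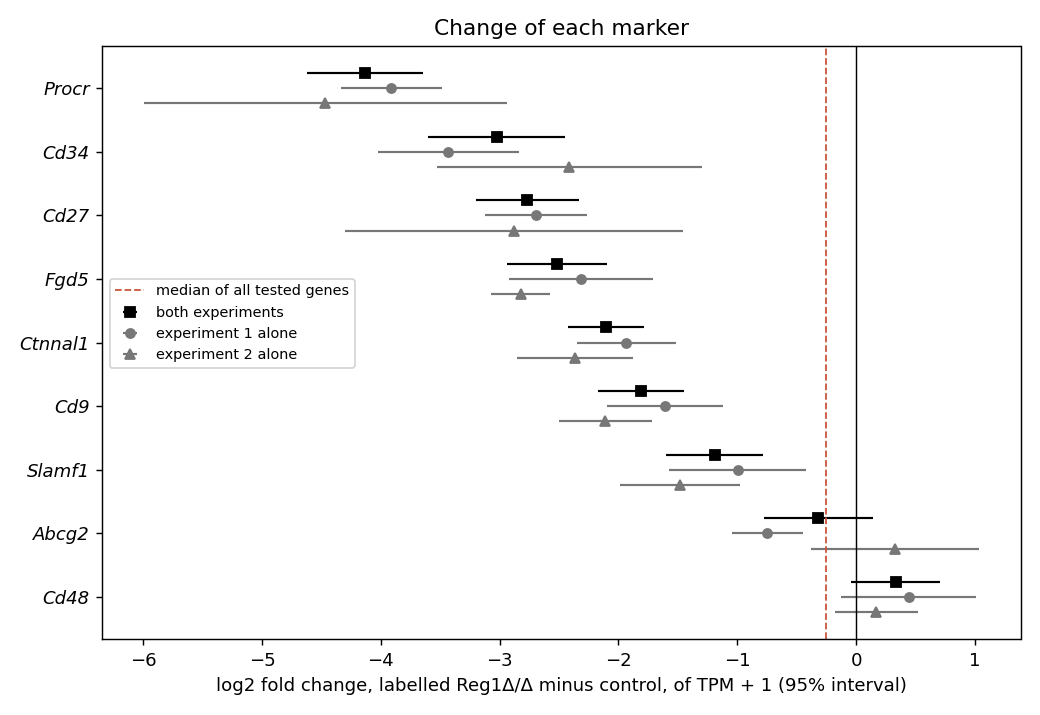
Log2 fold change of TPM + 1, labelled Reg1Δ/Δ minus control, with its 95% interval from limma, for each marker over both experiments (squares) and in each alone (circles and triangles). The dashed line is the median of all tested genes, −0.25, and the intervals of Cd48 and Abcg2 over both experiments include 0.

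TPM is a share of all transcripts, so that the zero of a fold change depends on the scaling. Quantile normalization moved the median change of the tested genes up by 0.40 on the log2 scale, and median-of-ratios scaling moved it by 0.30. Higher genes made up 28.4% of the calls as reported, 59.4% after quantile normalization and 53.7% with median-of-ratios scaling. Procr, Cd34, Fgd5, Ctnnal1, Cd9 and Cd27 kept their direction and passed at FDR under 0.05 under both.

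Genes related to the markers by family or pathway were counted from lists by name, beside 37.9% lower and 15.0% higher among all tested genes. Of 20 other identity genes of HSCs, 17 were tested, 16 were lower and none was higher, with a median log2 fold change of −2.88. Hlf, a transcription factor of HSCs, fell from means of 154 and 61.8 TPM in the controls of experiments 1 and 2 to 1.89 and 1.86 TPM (log2 fold change −5.22, limma FDR = 3.71e-06). Ly6a was the gene that did not pass, and Robo4 entered the test by its 5 controls alone.

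Among the other SLAM receptors and their adapters, all 5 tested of 10 measured were lower (median −1.99). Slamf6 had means of 33.6 and 28.8 TPM in the controls and 0.91 and 0.02 TPM in the libraries labelled Reg1Δ/Δ (−4.34, limma FDR = 7.09e-05), and was listed at 0 in replicate 2 of the latter in experiment 2. Slamf7 was lower too (−2.36, FDR = 5.36e-05), but reached 1 TPM in the 5 controls alone and so could enter the test by them only. Cd48 itself, from the same gene cluster as several of them, did not pass in either direction.

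Tetraspanins and their partners were mixed, with 10 lower and 2 higher of 18 tested, and a median of −0.69. The largest falls were those of Cd53 (−2.85, limma FDR = 1.96e-06) and Cd63 (−2.63, FDR = 4.39e-07), both above that of Cd9 in size. The 2 that were higher were Tspan33 (1.67, FDR = 2.05e-04) and Cd82 (0.73, FDR = 0.0193). Of the 6 tested other ABC transporters, 4 were lower (median −1.08), led by the cholesterol exporter Abcg1 (−2.22, FDR = 1.05e-06) and the drug pump Abcb1b (−1.45, FDR = 0.0013). Of the 5 other FGD exchange factors, 4 were lower (median −1.33), led by Fgd2 (−2.18, FDR = 0.00143) and Fgd1 (−1.62, FDR = 4.93e-05).

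Podxl, which encodes podocalyxin, the sialomucin closest to CD34 in family, went the other way to Cd34. It had means of 1.18 and 4.30 TPM in the controls and 10.7 and 39.5 TPM in the libraries labelled Reg1Δ/Δ, higher in both experiments without overlap (2.54, limma FDR = 1.31e-04), and was the 1 tested gene of its list of 2. In the protein C pathway around EPCR, 2 of 3 tested genes were lower (median −1.08). These were Thbd, thrombomodulin (−2.43, FDR = 9.69e-05), and Pros1, protein S (−1.08, FDR = 8.90e-04). Thbd reached 1 TPM in the 5 controls alone. Of the ligand and adapters of CD27, none of 3 tested passed in either direction (median −0.02). The alpha catenin Ctnna1, the 1 tested of 3, fell by 0.39 on the log2 scale (FDR = 0.0143), against 2.11 for Ctnnal1 (−2.11). The change of Ctnna1 was close to the median of all tested genes, and was −0.15 in experiment 2 alone (limma FDR = 0.319).

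**Figure D5:**
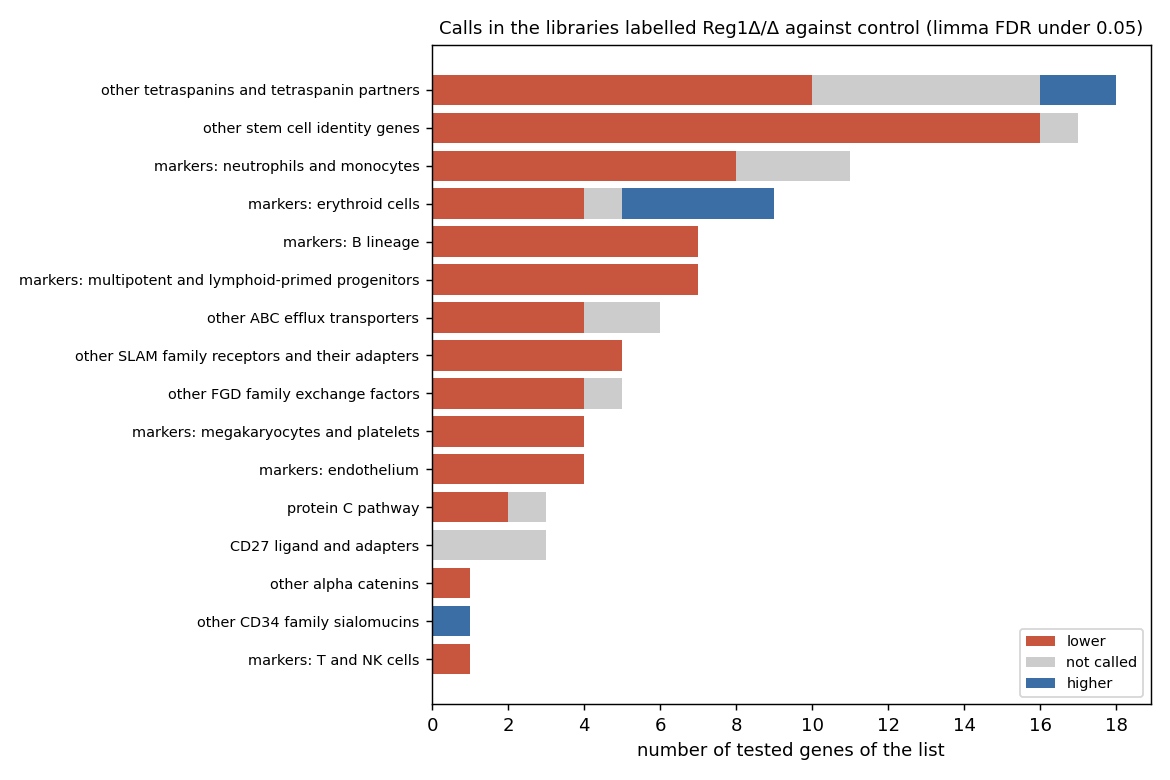
Number of tested genes in each list that were lower (red), higher (blue) or not called (grey) in the libraries labelled Reg1Δ/Δ at FDR under 0.05 (limma). Of the 17 other stem cell identity genes 16 were lower, and the erythroid list was split, with 4 lower and 4 higher of 9.

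Markers of other cells moved with the groups too, and their part in the results above was not tested. The 12 neutrophil and monocyte markers summed to 3496 to 5737 TPM in the controls and 372 to 1246 TPM in the libraries labelled Reg1Δ/Δ of experiment 1, and to 11629 and 13349 TPM against 986 and 1082 TPM in experiment 2. Of these 11 were tested and 8 were lower, led by the calprotectin genes S100a9 (−5.62, limma FDR = 8.80e-04) and S100a8 (−5.25, FDR = 6.35e-04). S100a9 varied among the libraries labelled Reg1Δ/Δ of experiment 1, with 13.7, 92.3 and 0.196 TPM, and replicate 2 was the highest. The 3 that did not pass, the primary granule genes Mpo, Elane and Ctsg, were lower without overlap in experiment 1 and overlapped in experiment 2, where the mean of Mpo was 319 TPM in the controls and 324 TPM in the others, that of Elane 158 and 176 TPM, and that of Ctsg 90.1 and 100.9 TPM. The 8 B lineage markers summed to 133 to 921 TPM against 5.05 to 18.1 TPM, and to 858 and 1000 TPM against 2.37 and 6.27 TPM. All 7 tested were lower, led by the surrogate light chain genes Igll1 (−6.81, FDR = 3.99e-05) and Vpreb1 (−6.26, FDR = 6.43e-05), both listed at 0 in replicate 2 of the libraries labelled Reg1Δ/Δ of experiment 2. Ms4a1, another of the 7, reached 1 TPM in the 5 controls alone.

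Multipotent and lymphoid-primed progenitor markers, a class that includes Flt3, summed to 313 to 521 TPM against 29.4 to 36.0 TPM in experiment 1 and to 521 and 553 TPM against 11.5 and 16.6 TPM in experiment 2. All 7 tested of 9 were lower, led by Dntt (−6.10, limma FDR = 2.15e-05) and Rag2 (−3.89, FDR = 3.23e-05). Rag2 and Ccr7 entered the test by the 5 controls alone. Of the megakaryocyte and platelet markers, counted because CD9 is also a protein of platelets, all 4 tested of 6 were lower, led by Gp9 (−2.15, FDR = 6.38e-06) and Pf4 (−2.10, FDR = 2.31e-04), with sums of 237 to 455 TPM against 80.3 to 98.8 TPM and 93.7 and 103 TPM against 19.1 and 27.5 TPM. The endothelial markers, relevant because Procr and Cd34 are carried by endothelium as well, summed to 40.8 to 57.0 TPM against 6.04 to 7.77 TPM and to 112 and 129 TPM against 12.3 and 14.4 TPM. All 4 tested of 6 were lower, led by Emcn (−3.82, FDR = 6.23e-08) and Pecam1 (−2.69, FDR = 4.39e-07), both also known in HSCs. Emcn and Cldn5 entered the test by the 5 controls alone.

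Erythroid markers were split. Of 9 tested, 4 were lower, led by the globin genes Hbb-bs (−3.19, limma FDR = 5.65e-05) and Hba-a2 (−3.00, FDR = 2.78e-05), whose near-identical copies share reads. The 4 that were higher were Car1, carbonic anhydrase 1 (2.24, FDR = 0.00111), with means of 1655 and 1864 TPM in the controls of experiments 1 and 2 and 8017 and 6136 TPM in the libraries labelled Reg1Δ/Δ, the transcription factor gene Klf1 (1.80, FDR = 9.55e-04), the erythropoietin receptor gene Epor (1.44, FDR = 0.00197) and the water channel gene Aqp1 (1.11, FDR = 0.00118). All 9 erythroid markers together summed to 3378 to 6100 TPM against 8362 to 9181 TPM in experiment 1 and 6941 and 8646 TPM against 7722 and 7820 TPM in experiment 2. Most of the sum in the libraries labelled Reg1Δ/Δ was Car1, while the globin genes fell. Of the 7 T and NK cell markers 1 was tested, Cd4, which was lower (−1.79, FDR = 0.00125), and the list summed to 6.27 to 16.0 TPM in the controls and 1.30 to 2.36 TPM in the libraries labelled Reg1Δ/Δ of experiment 1. No marker of these lists was at 0 in all 10 libraries.

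For each marker that fell, the genes most like it were taken as the protein-coding genes with the highest Pearson's r over the 10 libraries, on log2(TPM + 1) centred within each experiment. All 10 libraries share the difference between the groups in these correlations, as do the 4880 genes that were lower, so they are a description with no test. Closest to Procr were Rassf2 (r = 0.998) and Tlr2 (0.997), and closest to Cd34 were Adgrl4 (0.997) and Etv3 (0.996). Fgd5 was followed most closely by Fgf3 (0.995) and Rgs14 (0.994), and Ctnnal1 by Tmsb4x (0.995) and Capsl (0.995), which was listed at 0 in both libraries labelled Reg1Δ/Δ of experiment 2. The genes most like Cd9 were Lat2 (0.992) and Csad (0.992), and those most like Cd27 were Zfp467 (0.998), listed at 0 in replicate 2 of the same libraries, and Sorbs3 (0.998). Slamf1 had the lowest values of the 7, with Atp10d (0.985) and Tpd52 (0.982).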

How the data were processed

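RNA-seq values of 10 libraries of sorted CD34- HSCs were used, grouped by genotype from the labels and into 2 experiments from the sample names and the numbers per group that the study gives. Paired-end reads of 101 bases were aligned by the authors with STAR (GRCm38), and Salmon 0.9.1 with GENCODE transcripts gave TPM. The deposited values are log2(TPM + 1), on the log2 scale, 1 per transcript. The depth is unknown, and no counting intervals can be given. One file carried another sample's name in its header (replicate 2 of the libraries labelled Reg1Δ/Δ, second experiment). Its values differed from that sample's.

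From the deposited values, TPM was summed per gene. Genes and transcripts at 1 TPM or more in at least 5 libraries entered limma 3.58.1 (R 4.3.3) as log2(TPM + 1), with experiment as covariate and Benjamini-Hochberg adjustment over all tested features. Ratios were tested by exact permutation within experiments. The fits were tested on simulated data. Alternatives were other pseudocounts, filters, scalings and covariates, protein-coding transcripts only, each experiment alone and each library left out. Beside the markers and the genes of the sort, the 2 genes with the largest change in each list were named if they passed, and the 2 most correlated with each marker that fell. One gene that this rule names is not reported here. The erythroid markers and tetraspanins that were higher, the granule genes that did not pass, and genes that entered the test by controls alone, were named after their values were seen. Members and lists were chosen with earlier results of these data known. Positions are those of GENCODE M21. Tables and plots used Python 3.11.15.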

Additional observations from a re-analysis of the deposited data

How the results depend on the processing

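Requiring 1 TPM in every library left 4 markers lower, since Procr, Fgd5 and Ctnnal1 were then not tested. Median-of-ratios scaling made 1 marker higher (Cd48) and 3973 tested genes higher. Quantile normalization gave 3861 higher and 2636 lower genes. Without the experiment as a covariate, 716 genes were higher, 3052 genes lower and 7 marker transcripts lower. Experiment 2 alone gave 452 higher and 1581 lower genes. Abcg2 changed sign in experiment 2 alone (0.32) and with median-of-ratios scaling (0.028). The cause of these changes was not tested.

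The ratio of Slamf1 to Cd48 changed by −1.44 and −1.65 in experiments 1 and 2 alone, that of Procr to Cd34 by −0.48 and −2.05, and that of Cd9 to Cd27 by 1.08 and 0.77. Experiments of this size allow no exact p below 0.1 and 0.333. With protein-coding transcripts only, Procr to Cd34 gave −1.03 (exact permutation p = 0.0667). Leaving out each library in turn gave −1.61 to −1.41, −1.27 to −0.83 and 0.84 to 1.13 for the 3 ratios, 7 to 8 lower markers, 10 to 14 lower and 0 to 1 higher marker transcripts, and 1548 to 1961 higher and 4409 to 5242 lower genes. Of the lower markers, the eighth was Abcg2, without replicate 1 of the libraries labelled Reg1Δ/Δ of experiment 2.

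Samples with the same replicate number deviated together with correlations of 0.03, 0.17 and 0.07 in experiment 1 and −0.05 in experiment 2, so the numbers were not taken as pairs. With the replicate block, 7 markers and 10 marker transcripts were lower, 1703 genes were higher and 4545 lower, and the ratios kept their differences of −1.52, −1.11 and 0.96 (exact sign flips, p = 0.0625, 0.0625 and 0.125, where 0.0625 is the smallest possible).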
